A study of Mus musculus with 10 samples.

Results

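Acute-phase and antimicrobial genes were followed over cell populations sorted from mouse mammary tissue, on 10 single-colour Affymetrix arrays. The list holds 8 genes, Hp, Lcn2, Saa3, Reg3g, C3, Cfb, Orm1 and Cp. The array annotation used here gave 7 of them at least 1 probe set of their own (13 probe sets in all), among 12394 genes named in this way. No probe set was named C3, which is not analysed here. Where a gene had several probe sets, the one with the highest mean over the 10 arrays stands for it. The list was drawn up in part because Hp, Reg3g, Lcn2 and Saa3 were much higher in tumour fibroblasts than in control fibroblasts, so the values of that comparison are given as a description without a test.

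Tumour fibroblasts (CAF, 3 arrays), a population labelled cancer stem cells (CSC, 2 arrays) and a population labelled TEC (2 arrays) came from mammary tumours of FVB/N mice with the genotype WAPCre-DNbcatn;HGF. Control fibroblasts (COF, 3 arrays) came from mammary glands of wild-type FVB/N mice. The Wap promoter, which drives the Cre of the tumour mice, is active in the secretory epithelium of the gland and not in fibroblasts. The TEC samples are named TEFs in 1 of their labels. Age, sorting gates and pooling of animals are not stated, and the labels do not say whether each array is a mouse of its own, so errors and p-values measure only the spread between these samples.

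Acute-phase proteins are made mainly by the liver when interleukin-6, interleukin-1 or bacterial products signal through the transcription factors STAT3, C/EBP and NF-kB. Epithelium, fibroblasts, adipocytes and neutrophils make some of them as well. Several act against microbes or limit damage: haptoglobin (Hp) binds free haemoglobin, lipocalin 2 (Lcn2) binds the iron carriers of bacteria, Reg3g is a lectin that binds bacterial cell walls, and factor B (Cfb) is the protease of the alternative complement pathway. Ceruloplasmin (Cp) is a copper-carrying ferroxidase, Saa3 is a serum amyloid A protein of the mouse that is largely made outside the liver, and orosomucoid (Orm1) is a plasma carrier protein of the lipocalin family.

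The promoters of Lcn2, Saa3 and Reg3g are shown because these genes stood furthest above COF in CAF among the 4 members with an entry in the RefSeq promoter table. Each window runs from 250 bases before to 50 bases after a transcript start on the GRCm38.p6 build, written 5′ to 3′ on the strand of the gene. The windows are chr2:32387690-32387989 (minus strand) for Lcn2, chr7:46715627-46715926 (minus strand) for Saa3 and chr6:78468825-78469124 (minus strand) for Reg3g. Capitals mark matches on either strand to the NF-kB consensus, to the C/EBP motif TTNNGNAA, to the STAT motif TTCNNNGAA or to the TATA box TATAAA.
Lcn2: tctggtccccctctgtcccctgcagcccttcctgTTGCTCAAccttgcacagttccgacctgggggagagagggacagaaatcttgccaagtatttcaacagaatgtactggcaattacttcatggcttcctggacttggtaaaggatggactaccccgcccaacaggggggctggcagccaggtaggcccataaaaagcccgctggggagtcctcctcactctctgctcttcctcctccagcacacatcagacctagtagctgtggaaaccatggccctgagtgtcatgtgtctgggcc
Saa3: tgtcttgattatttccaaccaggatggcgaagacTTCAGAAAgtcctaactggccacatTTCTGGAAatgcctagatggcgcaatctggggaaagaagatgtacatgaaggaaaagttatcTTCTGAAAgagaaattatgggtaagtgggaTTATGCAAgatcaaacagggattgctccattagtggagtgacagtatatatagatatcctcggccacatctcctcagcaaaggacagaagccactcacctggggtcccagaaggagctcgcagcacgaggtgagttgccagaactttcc
Reg3g: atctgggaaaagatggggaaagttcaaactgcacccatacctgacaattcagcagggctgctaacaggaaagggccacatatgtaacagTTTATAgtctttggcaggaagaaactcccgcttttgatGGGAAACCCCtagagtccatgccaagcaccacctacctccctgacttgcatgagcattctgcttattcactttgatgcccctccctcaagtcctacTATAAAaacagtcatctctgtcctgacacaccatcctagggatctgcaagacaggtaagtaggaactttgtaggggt
The Saa3 window held 4 C/EBP matches, at bases 35, 60, 122 and 152, and the Lcn2 window 1, at base 35. The Reg3g window held 1 NF-kB match, GGGAAACCCC at base 128, and 2 TATA box matches, at base 90 on the opposite strand and at base 224. No STAT match was found in these 3 windows, and no match overlapped another. Of the 32851 windows of the table, 40.7% held a C/EBP match, 13.6% a TATA box, 8.46% an NF-kB match and 8.30% a STAT match. A match is a description of letters and not a measured binding site. Cp also had an entry, with 2 overlapping windows that each held 1 C/EBP match. Hp, Cfb and Orm1 had no entry.

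Marker genes were read first, since each population can hold other cells. The 10 fibroblast genes had medians of 13.35 to 13.52 in CAF, 9.05 and 8.88 in CSC, 9.38 and 12.11 in TEC, and 13.82 to 13.86 in COF. Both kinds of fibroblast were thus high, and TEC replicate 2 stood well above TEC replicate 1. Pan-epithelial genes (10 measured) were highest in CSC, with medians of 6.93 to 7.47 in CAF, 12.37 and 12.27 in CSC, 9.60 and 10.09 in TEC, and 5.70 to 6.52 in COF. The 12 neutrophil genes had medians of 6.0 to 6.30 in CAF, 8.95 and 7.71 in CSC, 12.45 and 11.83 in TEC, and 5.15 to 5.21 in COF, and their summed linear level was 1428 to 2446 in CAF, 37216 and 30254 in CSC, 130560 and 103195 in TEC, and 529 to 562 in COF. TEC carried by far the most neutrophil signal, together with the highest medians of the 8 pan-leukocyte genes (13.54 and 13.15, against 6.79 to 8.12 in CAF, at most 11.43 in CSC and 5.22 to 6.07 in COF). The 5 hepatocyte genes had medians of 5.78 to 6.07 in CAF, 4.84 and 5.14 in CSC, 5.28 and 5.80 in TEC, and 5.61 to 5.75 in COF.

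**Figure D1:**
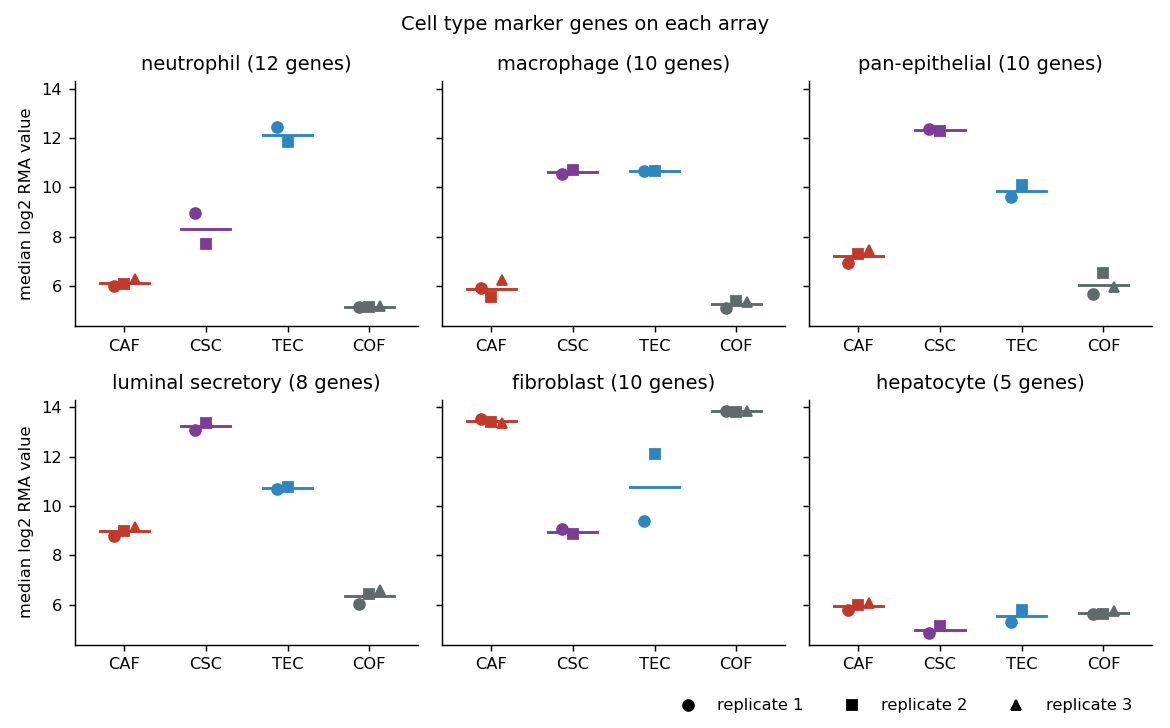
Median log2 RMA value of the marker genes of 6 cell types (vertical axis) on each array, by population (horizontal axis). Bars are means of the arrays and symbols are replicates. Neutrophil genes peak in TEC, epithelial genes in CSC, and fibroblast genes are high in CAF, COF and TEC replicate 2.

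The 7 genes did not share 1 pattern over the populations. Hp and Saa3 had their highest mean in CAF and were next highest in TEC. Reg3g and Cfb stood far above every other population in CAF. Lcn2 and Orm1 had their highest means in CSC and TEC, and Cp in CSC. The lowest mean was that of COF for 5 genes and that of CSC for Reg3g and Cfb. Values are log2 RMA values throughout, so a difference of 1 is a doubling, and levels of different probe sets are not compared with each other. As in any bulk sample, more cells of a type and more RNA per cell cannot be told apart.

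**Figure D2:**
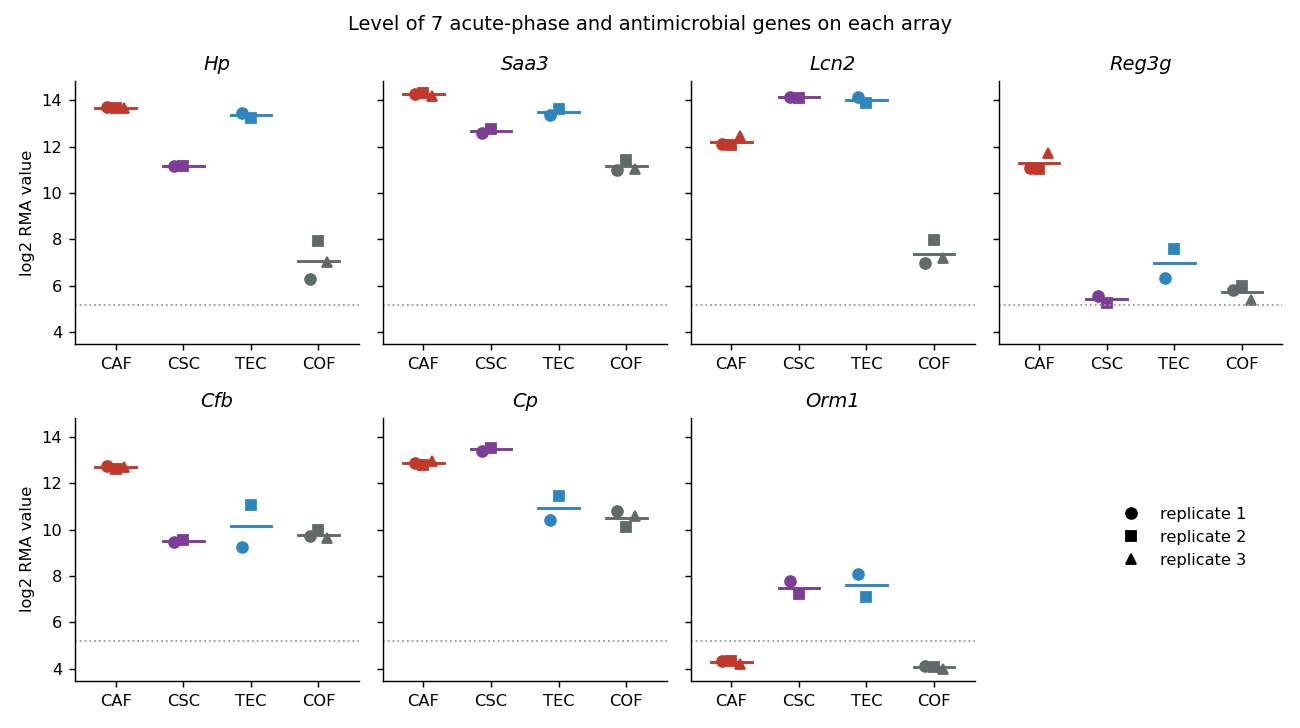
The log2 RMA value of each gene (vertical axis) on each of the 10 arrays, by population (horizontal axis). Bars are group means, symbols are replicates, and the dotted line is the mean lower quartile of the arrays. Hp, Saa3, Reg3g and Cfb peak in CAF, whereas Lcn2 and Orm1 peak in CSC and TEC.

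Among the iron and haemoglobin proteins, Hp (chr8:109575128-109579172) had log2 values of 13.72, 13.66 and 13.68 in CAF, 11.15 and 11.17 in CSC, 13.47 and 13.24 in TEC, and 6.31, 7.93 and 7.0 in COF. No populations overlapped. CAF stood above COF by 6.61 ± 0.32 (log2 difference ± SE, n = 3 and 3), or 97.5-fold, and TEC above COF by 6.28 ± 0.36 (n = 2 and 3). The CAF mean exceeded that of TEC by only 0.33, and the gap between the lowest CAF array and the higher TEC array was 0.19.

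Lcn2 (chr2:32384637-32387739) measured 12.11, 12.06 and 12.46 in CAF, 14.17 and 14.12 in CSC, 14.12 and 13.87 in TEC, and 6.99, 7.98 and 7.19 in COF. CSC and TEC overlapped, both lay above every CAF array, and all lay above COF. CSC exceeded COF by 6.76 ± 0.26 and TEC exceeded COF by 6.61 ± 0.26, while CAF exceeded COF by 4.83 ± 0.23. CAF was lower than CSC, with a log2 difference of -1.93 ± 0.26 (n = 3 and 2). Lcn2 was thus high in all 3 tumour populations, and its level in CAF was the lowest of them.

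Cp (chr3:19956933-20009750) read 12.87, 12.80 and 12.98 in CAF, 13.41 and 13.53 in CSC, 10.43 and 11.45 in TEC, and 10.79, 10.13 and 10.59 in COF. CSC and CAF were both high and did not overlap. TEC and COF overlapped, with TEC replicate 2 above all COF arrays and TEC replicate 1 among them. CAF exceeded COF by 2.38 ± 0.25 and CSC exceeded COF by 2.97 ± 0.28.

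Saa3 (chr7:46711998-46719615) reached 14.29, 14.32 and 14.19 in CAF, 12.60 and 12.78 in CSC, 13.38 and 13.61 in TEC, and 10.98, 11.43 and 11.06 in COF. The populations formed 4 separate steps, with gaps between the arrays of 0.58 from CAF to TEC, 0.60 from TEC to CSC and 1.18 from CSC to COF. The control fibroblasts were the lowest, yet their Saa3 values lay above the upper quartile of their arrays, which was 8.75 to 8.77. CAF exceeded COF by 3.11 ± 0.13.

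Reg3g (chr6:78466269-78468874), the antimicrobial lectin, stood at 11.10, 11.02 and 11.74 in CAF, 5.57 and 5.25 in CSC, 6.32 and 7.60 in TEC, and 5.82, 5.99 and 5.39 in COF. CAF alone carried it at a high level. CAF exceeded CSC by 5.87 ± 0.36, TEC by 4.33 ± 0.36 and COF by 5.55 ± 0.33. CSC and COF overlapped and lay close to the lower quartile of their arrays (5.05 to 5.23), where background weighs on the value.

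Cfb (chr17:34856374-34862514) gave 12.73, 12.64 and 12.69 in CAF, 9.48 and 9.57 in CSC, 9.25 and 11.09 in TEC, and 9.73, 9.98 and 9.65 in COF. CAF was the highest, by 3.16 ± 0.41 over CSC, 2.52 ± 0.41 over TEC and 2.90 ± 0.37 over COF. The other populations lay close together, except for TEC replicate 2. The SD of Cfb was 0.045 in CAF, 0.18 in COF and 1.30 in TEC, so the pooled SE of CAF minus COF largely reflects TEC. C3, the substrate partner of factor B, could not be set beside it.

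Orm1 (chr4:63344556-63348163) measured 4.32, 4.31 and 4.19 in CAF, 7.78 and 7.20 in CSC, 8.10 and 7.08 in TEC, and 4.13, 4.06 and 3.98 in COF. It was the 1 member that was low in both kinds of fibroblast, where every array stood under its lower quartile. CSC and TEC overlapped and stood above both kinds of fibroblast. The CAF and COF means differed by 0.22 ± 0.24, the smallest CAF minus COF difference of the 7. The SD was 0.073 in CAF, 0.073 in COF and 0.72 in TEC, all of which enter the pooled SE.

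All 7 genes were higher in CAF than in COF without overlap of arrays, which was also true of 30.1% of all 12394 genes (26.5% were lower in this way). In 6 of the 7 the difference was over 2, as in 1.06% of all genes. With the members picked in part on this comparison, nothing is read from these counts. The differences ran between 0.22 and 6.61 with a median of 3.11, where the median of all genes was 0.018. Over COF, CSC was higher in 5 genes and lower in 1 without overlap, against 38.4% and 42.2% of all genes. TEC was higher than COF in 5 and lower in 0, against 33.6% and 44.4%. These 3 comparisons share the COF arrays. CAF was higher than CSC in 4 genes and lower in 3, against 41.6% and 40.4% of all genes, and higher than TEC in 5 and lower in 2, against 46.5% and 34.7%.

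The comparison of CSC with TEC is the 1 contrast without CAF or COF, the populations of the rise for which genes were picked. The members were still chosen with earlier results of these data known. Their p-values in this contrast may thus not be free of that choice. CSC carried more Cp and less Hp, Reg3g and Saa3 than TEC, whereas Lcn2, Orm1 and Cfb did not pass the test. Cp was 5.78-fold higher in CSC, a log2 difference of 2.53 ± 0.30 (limma, n = 2 and 2 arrays, adjusted p = 0.000177). Hp was 4.58-fold lower in CSC (-2.19 ± 0.40, adjusted p = 0.00175). Saa3 differed by -0.80 ± 0.16 (adjusted p = 0.00295) and Reg3g by -1.55 ± 0.40 (adjusted p = 0.0109). The arrays of CSC and TEC did not overlap for these 4 genes. The share of all genes without overlap was not counted for this contrast, so nothing is read from that. Adjusted p-values are those of limma with Benjamini-Hochberg adjustment over all 12394 genes. Lcn2 differed by 0.15 (95% interval -0.50 to 0.79, adjusted p = 0.712), Orm1 by -0.098 (-0.76 to 0.57, adjusted p = 0.815) and Cfb by -0.64 (-1.66 to 0.38, adjusted p = 0.276). In all, 4 of 7 genes passed, 1 higher and 3 lower in CSC, where 46.7% of all genes passed, 26.6% higher and 20.1% lower. The share of the 7 that passed is thus near that of all genes.

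**Figure D3:**
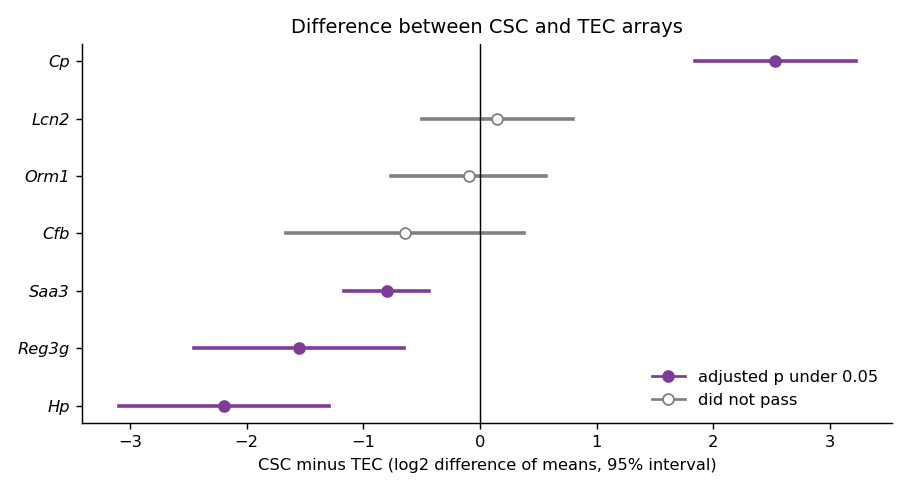
The CSC minus TEC difference of each gene (horizontal axis, log2 scale) with its 95% interval. Filled points passed at an adjusted p under 0.05. Cp lies to the right of 0 at 2.53, and the intervals of Saa3, Reg3g and Hp lie to the left of it.

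Reg3g no longer passed when limma was run on the CSC and TEC arrays only (adjusted p = 0.0744) or without CSC replicate 2 (adjusted p = 0.0687). Without TEC replicate 1, Cfb passed as lower in CSC (-1.56, adjusted p = 7.85e-05), and without TEC replicate 2, Orm1 did so (-0.61, adjusted p = 0.0393). With the other TEC array left out, the signs turned and neither passed: Cfb was 0.28 without TEC replicate 2, and Orm1 was 0.41 without TEC replicate 1. Reg3g was -2.19 without TEC replicate 1 and -0.91 without TEC replicate 2. The single array then left in a group is assumed to vary like the other groups. TEC replicate 2 lay above replicate 1 by more than 1 on the log2 scale for Reg3g, Cfb and Cp, along with the fibroblast genes, and replicate 1 lay above replicate 2 by about as much for Orm1. The part of the fibroblast genes in these levels was not tested.

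Neutrophils store haptoglobin and lipocalin 2 in their granules. In CSC minus TEC, 11 of the 12 neutrophil genes and 5 of the 10 fibroblast genes were lower, 0 of either were higher, and all 10 pan-epithelial genes were higher. Of the members, Hp, Reg3g and Saa3 were lower and Cp was higher, while Lcn2 did not pass (0.15). Hp and Cp were also high in CAF (means of 13.69 and 12.88). There the neutrophil medians were 6.0 to 6.30 and the pan-epithelial medians 6.93 to 7.47. Over the fibroblasts, 6 of the 12 neutrophil genes, 8 of the 8 pan-leukocyte genes, 8 of the 10 pan-epithelial genes and 6 of the 8 luminal secretory genes rose in CAF. None of the 10 fibroblast genes passed between CAF and COF, with a median difference of 0.1. The test pools the spread of all populations, and the TEC arrays differed widely in these genes (Pdgfra 7.02 and 9.80). Some fibroblast genes still separated CAF from COF without overlap, in both directions. Pdgfrb measured 11.14, 11.25 and 11.30 in CAF and 12.03, 12.24 and 12.06 in COF. Col1a1 measured 12.72, 12.73 and 12.76 in CAF and 11.54, 12.49 and 12.05 in COF. The part of the neutrophil, leukocyte, epithelial and fibroblast genes in the levels of the members was not tested.

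Cp was read by 7 probe sets, which fell into 2 patterns. On 5 of them (1417494_a_at, 1417495_x_at, 1448734_at, 1417496_at and 1455393_at) CAF stood above COF by 2.0 to 3.06 and CSC stood above COF by 2.24 to 4.01. The other 2 placed CSC below COF. Probe set 1448735_at read 10.02, 9.95 and 9.78 in CAF, 6.98 and 7.48 in CSC, 5.22 and 6.95 in TEC, and 9.64, 8.74 and 9.51 in COF. Probe set 1417497_at read 8.31, 8.01 and 7.91 in CAF, 6.60 and 6.63 in CSC, 5.42 and 5.97 in TEC, and 8.15, 7.14 and 7.84 in COF. On these 2 both kinds of fibroblast lay above CSC and TEC, and CAF exceeded COF by only 0.63 ± 0.40 and 0.37 ± 0.25. In CSC minus TEC, the 5 probe sets were higher in CSC by 2.35 to 2.98 and all passed (limma, adjusted over 20393 probe sets, adjusted p of at most 0.000271). Probe set 1417497_at differed by 0.92 (adjusted p = 0.033) and 1448735_at by 1.15 (adjusted p = 0.0844). Where on the transcript each probe set lies was not known here. The difference of CAF from CSC depends on the probe set, with -0.59 on the one of highest mean, 2.69 on 1448735_at and 0.16 for the mean of all 7.

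**Figure D4:**
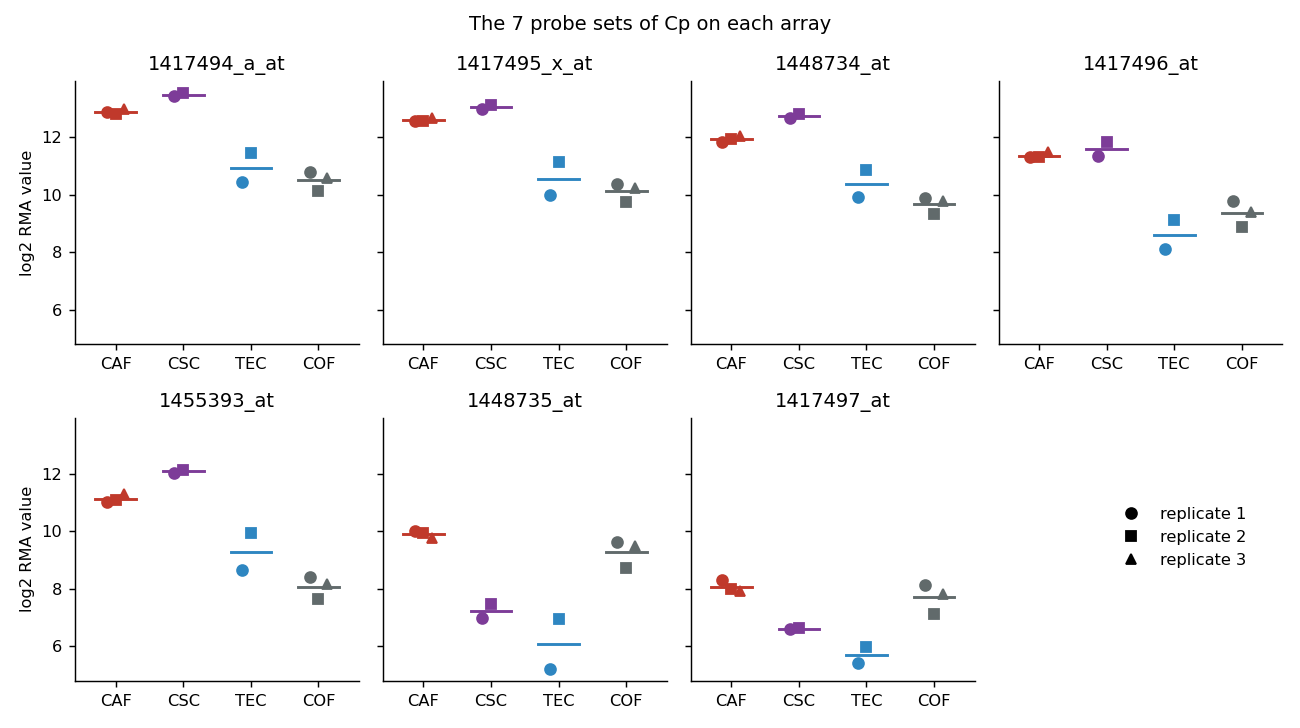
The log2 RMA value of each of the 7 Cp probe sets (vertical axis) on the 10 arrays, by population (horizontal axis), with bars for group means and symbols for replicates. CSC stands above COF on 5 probe sets and below COF on 1448735_at and 1417497_at.

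The members were also set beside each other over the 10 arrays, as a description in which arrays of a population are not independent points. The highest Pearson r of the 21 pairs were those of Hp and Saa3 (0.98) and of Reg3g and Cfb (0.98), and the lowest was that of Cfb and Orm1 (-0.48). Among 7664 genes with a range of at least 1 on the log2 scale, those most like Reg3g were Cdkn2a (r = 0.994), a locus of cell cycle inhibitors, and Actg2 (0.988), a smooth muscle actin. Those most like Cfb were Angpt4 (0.994), an angiopoietin, and Grb14 (0.993), an adaptor of the insulin receptor. For Hp they were Pigs (0.994) and Gnptab (0.994), for Saa3 Ccng1 (0.987) and Gnptab (0.985), and for Lcn2 H2aj (0.997) and Slc39a11 (0.989). For Orm1 they were Gde1 (0.997) and Gna15 (0.997), and for Cp Ggact (0.984) and Inhbb (0.967), a subunit of activin. The measure ignores the size of a change. Pigs averaged 8.79 in CAF and 7.67 in COF, a far smaller step than that of Hp.

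Other genes of the response were taken from 7 lists of 155 genes, 132 of them measured. In CAF minus COF, 34.8% of all genes passed, 18.1% higher and 16.7% lower in CAF. Of the other acute-phase proteins, 7 of 22 rose in CAF, 1 fell and 14 did not pass, with a median of 0.025 against 0.018 for all genes. Saa1 and Saa2, relatives of Saa3 that are nearly identical to each other and that probes may not tell apart, rose by 4.24 ± 0.28 and 3.25 ± 0.27. The protease inhibitors Serpina1b (2.05 ± 0.20) and Serpina3n (2.06 ± 0.51) and the metalloreductase Steap4 (1.06 ± 0.092) rose as well. So did Lbp (2.81 ± 0.32) and Itih3 (0.45 ± 0.14). Orm2, a relative of Orm1, did not pass (-0.12 ± 0.16). Of the relatives of Reg3g, Reg1 (3.41 ± 0.33) and Reg3a (0.51 ± 0.12) rose. Reg3b (0.10 ± 0.12), Reg2, Reg3d and Reg4 did not pass. These Reg genes are counted with the antimicrobial genes.

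Saa1 and Saa2 were distributed unlike Saa3. Saa1 measured 10.18, 10.26 and 11.41 in CAF, 14.19 and 14.16 in CSC, 12.16 and 12.30 in TEC, and 6.50, 6.29 and 6.32 in COF. CSC was thus the highest population for Saa1, and CAF was the highest for Saa3. Between CSC and TEC, Saa1 (1.95 ± 0.34, adjusted p = 0.00141) and Saa2 (2.54 ± 0.33, adjusted p = 0.000249) were higher in CSC, where Saa3 was lower.

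Antimicrobial genes other than the members rose in CAF in 9 of 24 cases, fell in 1 and did not pass in 14 (median 0.23). S100a8 (3.73 ± 0.24) and S100a9 (3.04 ± 0.51), the subunits of calprotectin, and lactoferrin, Ltf (2.44 ± 0.23), were among those that rose. The lysozymes Lyz1 (4.77 ± 0.30) and Lyz2 (3.47 ± 0.32), near-identical paralogs that probes may not tell apart, rose too. Lyz2 is also a macrophage marker, and Lyz1 did not pass without probe sets ending in _x_at, _s_at or _a_at (0.054, adjusted p = 0.756). S100a8 measured 8.24, 8.16 and 9.18 in CAF and 4.82, 4.83 and 4.72 in COF. S100a8, S100a9 and Ltf, which are abundant in neutrophils, were highest among the fibroblast arrays on CAF replicate 3, as were Lcn2, Reg3g, Cp and the leukocyte median. The other members were not: Hp, Cfb and Orm1 were highest on CAF replicate 1 and Saa3 on CAF replicate 2. Of the other neutrophil genes, Camp, Ngp and Prtn3 were also highest among the fibroblast arrays on CAF replicate 3. Csf3r, Cxcr2, Mpo, Elane, Ctsg and Mmp8 were not. Ltf is in the luminal secretory list as well. Without CAF replicate 3 the CAF minus COF difference was 4.70 for Lcn2 and 5.33 for Reg3g.

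Of the other complement genes, 7 of 31 rose in CAF, 3 fell and 21 did not pass (median 0.22). Cfi (2.73 ± 0.28), the protease that cleaves the active form of C3, Masp1 (2.49 ± 0.39), a protease of the lectin pathway, and clusterin, Clu (1.21 ± 0.11), rose. Without probe sets ending in _x_at, _s_at or _a_at the Masp1 difference was 0.53, with the call kept. Hc, which encodes complement C5, was lower in CAF (-2.56 ± 0.17).

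Of the cytokines and receptors that induce the response, 4 of 20 rose, 3 fell and 13 did not pass. Il6 measured 14.19, 14.18 and 14.21 in CAF and 14.03, 13.95 and 14.01 in COF. The groups did not overlap, but the difference of 0.20 ± 0.36 did not pass (limma, adjusted p = 0.742), whereas it passed when limma was run on CAF and COF only (adjusted p = 0.0374). Il1b (0.24 ± 0.22), the IL-1 receptor Il1r1 (-0.074 ± 0.37) and the oncostatin M receptor Osmr (-0.21 ± 0.36) did not pass. The 4 that rose were the IL-1 receptor subunit Il1rap (0.94 ± 0.18), the IL-6 family ligands Lif (1.76 ± 0.36) and Il11 (1.42 ± 0.46), and the LIF receptor Lifr (0.51 ± 0.16), the last 3 chosen after their values were seen. Lif measured 10.23, 10.33 and 10.61 in CAF and 8.71, 8.51 and 8.67 in COF, and Il11 8.69, 8.55 and 8.96 in CAF and 6.55, 8.14 and 7.23 in COF, without overlap in either. Lif did not pass with the closest pairs of arrays averaged, a setting chosen after seeing the data (adjusted p = 0.0522). Il11 (adjusted p = 0.0385) did not pass with any 1 array left out other than COF replicate 2. Lifr did not pass with the replicate block or in the mean of its probe sets (-0.072). It also did not pass in limma without COF replicate 2, COF replicate 3, CAF replicate 1 or CAF replicate 2 (adjusted p of 0.0785 to 0.114). The 3 that fell were Il6ra (-1.0 ± 0.19), the IL-17 receptor Il17ra (-1.08 ± 0.19) and the adaptor Myd88 (-1.14 ± 0.16).

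Transcription factors and regulators of the response were mostly lower in CAF, with 1 of 15 higher, 10 lower and 4 that did not pass (median -0.57). Stat3 (-0.76 ± 0.11), Cebpd (-0.81 ± 0.18) and Rela (-0.72 ± 0.14), an NF-kB subunit, fell, as did Cebpa (-1.43 ± 0.096), a C/EBP factor, and Socs1 (-0.56 ± 0.095), a feedback inhibitor of JAK-STAT signalling. Cebpd was -0.53 in the mean of its probe sets. Nfkbiz, an NF-kB cofactor needed for Lcn2 induction, was the 1 that rose (0.36 ± 0.12, adjusted p = 0.0363), and it did not pass when any 1 of the 6 fibroblast arrays was left out (adjusted p of 0.0584 to 0.112). Socs3 (-0.17 ± 0.11) and Nfkbia (0.062 ± 0.084), feedback inhibitors of STAT3 and NF-kB signalling, did not pass, although Socs3 did on a probe set of another type (-0.55, adjusted p = 0.0184). With the closest pairs of arrays averaged, Cebpd (adjusted p = 0.105), Rela (adjusted p = 0.0624), Il6ra (adjusted p = 0.0626) and Serpina3n (adjusted p = 0.102) no longer passed.

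Receptors and partners of the member proteins rose in 4 of 17 cases and fell in 6. The 4 that rose were Cfi, Scarb1 (0.70 ± 0.15), Extl3 (0.39 ± 0.093) and Fth1 (0.31 ± 0.076), with Cfi also counted among the complement genes. The iron exporter Slc40a1 (-1.41 ± 0.21), which works together with ferroxidases such as ceruloplasmin, and the membrane ferroxidase Heph (-2.04 ± 0.19) fell in CAF. Haem oxygenase Hmox1 (-2.53 ± 0.22) and the lipocalin 2 receptor Slc22a17 (-0.74 ± 0.11) fell too. The C3a receptor C3ar1 did not pass (0.30 ± 0.15), though it did when limma was run on CAF and COF only (adjusted p = 0.0448).

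**Figure D5:**
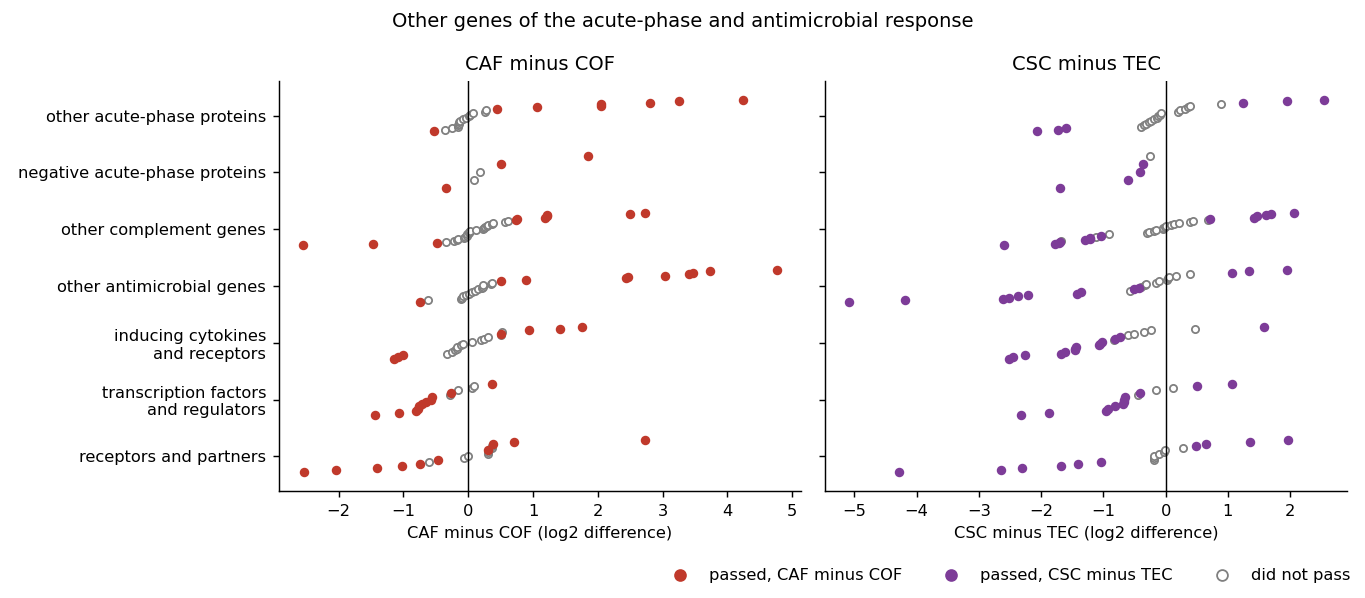
Log2 difference (horizontal axis) of each measured gene of the 7 lists (rows), for CAF minus COF on the left and CSC minus TEC on the right. Each point is a gene, filled where it passed at an adjusted p under 0.05. In CAF minus COF, acute-phase and antimicrobial genes reach furthest to the right and most regulators lie left of 0.

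Between CSC and TEC, the inducing cytokines and receptors were lower in CSC in 13 of 20 cases and higher in 1, and regulators were lower in 10 of 15 and higher in 2. Il1b measured 12.27 and 11.28 in CSC and 14.35 and 14.10 in TEC (-2.45 ± 0.27, adjusted p = 0.000102), and Nfkbiz differed by -0.93 ± 0.14. Il17ra (-2.52 ± 0.24), Il1rap (-2.27 ± 0.22) and the NF-kB subunits Rel (-2.32 ± 0.28) and Relb (-1.87 ± 0.24) were lower in CSC too. Cebpd (1.07 ± 0.22) and Osmr (1.59 ± 0.44) were higher in CSC, though Osmr was 0.72 without TEC replicate 1 and 2.46 without TEC replicate 2. Osmr did not pass without CSC replicate 2 (adjusted p = 0.0932) or on the CSC and TEC arrays only (adjusted p = 0.129). Of the antimicrobial genes 10 of 24 were lower in CSC, led by the neutrophil granule genes Camp (-5.09 ± 0.27) and Ngp (-4.19 ± 0.22), and 3 were higher, among them the defensin Defb1 (1.94 ± 0.16) and lactoperoxidase, Lpo (1.33 ± 0.14). Other acute-phase proteins were split, 3 higher and 3 lower of 22, as were complement genes, 6 higher and 8 lower of 31, and partners, 4 higher and 6 lower of 17. Negative acute-phase proteins, which the liver makes less of in the response, were lower in CSC in 4 of 5 cases. Those were Ttr (-0.37 ± 0.13), Rbp4 (-1.70 ± 0.60), Ahsg (-0.60 ± 0.21) and Apoa1 (-0.41 ± 0.14). Ahsg measured 4.75 and 5.14 in CSC, near the lower quartiles of those arrays (5.08 and 5.05). None of the 4 passed on the CSC and TEC arrays only (adjusted p of 0.160 to 0.203), and Ttr and Apoa1 did not pass with the replicate block. Without TEC replicate 2, Rbp4 (-0.49, against -2.91 without TEC replicate 1) and Ahsg (-0.34) did not pass either. In CAF minus COF 2 of the 5 rose and 1 fell.

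CAF and CSC differed in most of these genes, as in 66.5% of all genes (33.4% higher and 33.1% lower in CAF). Of the antimicrobial genes, 9 of 24 were higher and 15 lower in CAF. Of the inducing cytokines and receptors 12 of 20 were higher and 4 lower. Il6 (3.37 ± 0.41) and the shared receptor subunit Il6st (3.73 ± 0.31) were higher in CAF, and Il1b (-6.02 ± 0.24) and Tnf (-2.43 ± 0.21) were lower. Other acute-phase proteins were higher in CAF in 13 of 22 cases and lower in 4, and complement genes were higher in 15 of 31 and lower in 9. Regulators were higher in 5 of 15 and lower in 4, partners were higher in 4 of 17 and lower in 10, and negative acute-phase proteins were higher in 3 of 5 and lower in 0.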

How the data were processed

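RNA of sorted cells (100 ng per array, per the labels) was hybridised to single-colour Affymetrix arrays. The deposited values are log2 values of 22690 probe sets, made by the authors with RMA per the submitters' processing notes, and were used as they are. Neither its version nor whether all arrays were normalized together is stated. The annotation gave 20393 probe sets 1 gene symbol, 691 several and 1606 none. Only the first kind was used, with the probe set of highest mean per gene, which left 12394 genes, 12370 of them with a RefSeq identifier.

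Tests used limma 3.58.1 (lmFit and eBayes, R 4.3.3), two-sided, with group as the only term over all 10 arrays, and called genes at a Benjamini-Hochberg adjusted p under 0.05. The script was tested on simulated data with 1 SD per gene for all groups, so unequal spread between groups was not covered. For CSC minus TEC, 7.52% of the simulated calls were false. Of simulated log2 changes of 0.5, 1 and 2, 16.4%, 70.1% and 98.5% were recovered. Members were tested in CSC minus TEC alone. Few arrays limit the precision, and the groups spread unequally: the SD of the differences between 2 arrays was 0.55 within TEC and 0.14 to 0.22 within CAF.

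The members, the 7 pathway lists, the 10 marker lists and the motifs were chosen with earlier results of these data known. Genes named in the text were drawn by a rule: all members, up to 4 genes per list and contrast with the smallest adjusted p, a fixed set such as Il6 and Stat3, and the 2 genes most like each member. Other genes that are named were chosen after their values were seen. Same-numbered CAF and COF arrays had correlations of their deviations of 0.13, 0.0063 and -0.082, so the numbers were not treated as pairs. Alternatives were the samples in the fit, the replicate number as a block, the prior, a filter on dim genes, the choice and type of probe set, the scaling, the threshold and each array left out.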

Additional observations from a re-analysis of the deposited data

How the results depend on the processing

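With 2 or 3 arrays per group and no detection calls, sizes of differences that involve values near the lower quartile of an array, as for Reg3g and Orm1, depend on the background. The same holds for Orm2, Reg3a, Reg3b and Ahsg, which had values near or under it. The count of members called between CSC and TEC stayed between 3 and 5 in every setting run, with 4 in the replicate block. In CSC minus TEC, 5786 genes passed, against 3013 when limma was run on the CSC and TEC arrays only, 9152 with every probe set tested, 5365 with the replicate block, and 4417 to 6039 with 1 array left out. In CAF minus COF, 4309 genes passed, against 6878 with every probe set tested, 2638 at an adjusted p under 0.01, 3947 with the replicate block, and 2980 to 4316 with 1 array left out. With CAF replicates 1 and 2, and COF replicates 1 and 3, each averaged, a setting chosen after seeing the data, it was 1805, in part because fewer arrays enter. In CAF minus CSC, 8247 genes passed, against 13222 with every probe set tested, 7813 with the replicate block, and 7059 to 7675 with 1 array left out. More features are tested when every probe set counts. The replicate block rests on shared numbers only and changed no call of a member.

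Lifr in CAF minus COF, called as higher in CAF, was -0.072 in the mean of its probe sets, and the cause was not tested. In the mean of all its probe sets, Cp was higher in CAF than in CSC by 0.16, the reverse of its main value, as its probe sets differ in direction. Reg3b in CAF minus CSC, called as lower in CAF, was 0.0036 with the mean of its probe sets and 0.36 without probe sets ending in _x_at, _s_at or _a_at, and the cause was not tested. Of the 95 member values in CSC minus TEC under other settings, 90 kept their side of the threshold, 3 lost it (all of Reg3g) and 2 gained it (Cfb and Orm1). Lcn2 and Saa3 had no value without probe sets of those types, and Orm1 had none without the dimmest 30% of genes. Of the 603 values of named pathway genes in the same contrast, 544 kept their side, 56 lost it and 3 gained it.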
